A study of Homo sapiens with 8 samples.

Results

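The miRNAs described here carry numbers of 5000 and above in their names, and were chosen by that number alone from the 1887 human miRNAs of an Agilent array, leaving out miR-5194 and miR-5703. The rule took 109 miRNAs, whose numbers on this array lie below 6000. PC-3, an established human cell line from a prostate cancer, gave the RNA, taken 24 h after DMSO (the solvent), 60 µM luteolin (Lut), 60 µM gefitinib (Gef) or both drugs at 60 µM each (Lut+Gef). Luteolin is a plant flavonoid, and gefitinib inhibits the kinase of the epidermal growth factor receptor. Each treatment had 2 arrays, labelled as biological replicates, and all 8 arrays lay on 1 slide read in 1 scan. Nothing in the labels says whether replicates came from separate cultures, so the p-values below measure the spread between these arrays, which may be technical.

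A miRNA is a short RNA that guides an Argonaute protein to messenger RNAs, mainly by pairing of its seed (bases 2 to 8) with sites in the message. It is cut from a hairpin, and the arms of the hairpin give the 5p and the 3p product. Numbers are assigned in the order in which miRNAs are registered, so high numbers belong to late entries. Such entries came largely from deep sequencing, are often of low abundance, and have in part been questioned as fragments of other RNAs.

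Mature sequences were taken from RefSeq (GRCh38.p14), which matched 92 of the 109 names. Of the 19 miRNAs that the scanner software detected on at least 1 array, 16 had a sequence. miR-5088, miR-5189 and miR-5195-3p had no entry. The following were detected on all 8 arrays, and are shown because they carry the measured part of the set. The seed is in capitals.
miR-5001-5p: aGGGCUGGacucagcggcggagcu
miR-5003-5p: uCACAACAaccuugcaggguaga
miR-5006-5p: uUGCCAGGgcaggagguggaa
miR-5090: cCGGGGCAgauugguguagggug
miR-5100: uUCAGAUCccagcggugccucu
miR-5190: cCAGUGACugagcuggagcca
miR-5196-5p: aGGGAAGGggacgaggguuggg
miR-5581-5p: aGCCUUCCaggagaaauggaga
miR-5684: aACUCUAGccugagcaacag
The following were detected on both arrays of one treatment and on no array of another, and are shown because the treatment comparisons turn on them.
miR-5587-5p: aUGGUCACcuccgggacu
miR-5003-3p: uACUUUUCuagguuguugggg
miR-5008-5p: uGAGGCCCuuggggcacagugg
miR-5585-3p: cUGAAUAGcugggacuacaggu
miR-5701: uUAUUGUCacguucugauu
No seed was shared between detected miRNAs of the set. Of the 109, only miR-5692b and miR-5692c shared a seed, and neither was detected. miR-5001-5p shared its seed with 3 other miRNAs on the array (miR-4492, miR-4498 and miR-762), of which 1 was detected.

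Few of the late-numbered miRNAs were detected in PC-3 cells. The software detected 19 of the 109 (17.4%) on at least 1 array and 10 (9.17%) on all 8 arrays, and 90 on none. The share detected on all arrays was 16% of the 500 miRNAs numbered from 4000 to below 5000, 11.7% of the 273 numbered from 3000 to below 4000, and 24.0% of the 1003 with lower numbers or named let-7. These shares describe 1 cell line on 1 array design, and were not tested. Within the set, 13 of the 49 miRNAs numbered below 5500 and 6 of the 60 numbered 5500 or above were detected at least once.

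**Figure D1:**
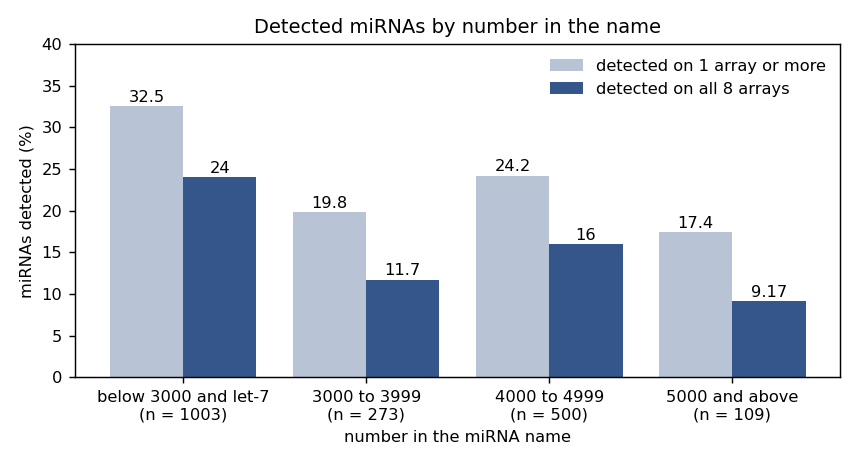
Share of miRNAs (%) detected on at least 1 array (pale bars) and on all 8 arrays (dark bars), by the number in the miRNA name, with the number of miRNAs under each pair of bars. The bars of miRNAs numbered 5000 and above, at 17.4% and 9.17%, are the lowest of the 4 classes.

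Between 12 and 16 miRNAs of the set were detected on an array, with 16 and 12 in DMSO-treated cells, 16 and 12 after luteolin, 16 and 16 after gefitinib, and 14 and 13 after both drugs. Requiring most spots of a probe to lie well above background left 7 to 11 per array. The 5p arm was detected for 8 of 30 names ending in 5p, against 4 of 29 ending in 3p, and 7 of the 50 names without an arm were detected. The array held both arms of 29 hairpins in the set. Both arms were detected for 1 of them, miR-5003, the 5p arm alone for 7, the 3p arm alone for 3, and neither arm for 18.

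The detected miRNAs were richer in G and C than the undetected ones. The median G+C content was 61.9% over the 9 sequences detected on all arrays and 45.5% over the 76 sequences detected on none, and the median G content was 33.3% and 22.7%. The G+C median was 50% over the 7 detected on some arrays and 54.5% over all 16 detected. A run of 3 or more G occurred in 10 of the 16 detected sequences (62.5%) and in 17 of the 76 undetected ones (22.4%). Among the detected sequences miR-5010-5p, with the seed GGGGGAU, had the longest run, of 5, and miR-5196-5p was 63.6% G. The median length was 22 bases in both classes. These are descriptions with no test, and over all 1578 array miRNAs with a sequence the median G+C content was likewise lower (50%) than over the 303 of them detected on all arrays (52.4%). The trait was not particular to this set. From 4000 to below 5000 these medians were 53.6% and 65.9%, and from 3000 to below 4000 they were 50% and 59.1%.

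Most of the detected miRNAs lie within the bounds of another gene in RefSeq, with strand and exons not considered. miR-5001 overlaps TIGD1, a gene derived from a transposase. miR-5003 overlaps NEURL1B, a ubiquitin ligase of the Notch pathway, and miR-5008 overlaps WNT9A, a Wnt ligand. miR-5010 lies in ATP6V0A1, a subunit of the vacuolar proton pump, and miR-5088 in PRMT1, the main arginine methyltransferase of mammalian cells. miR-5090 lies in LRWD1, which binds the origin recognition complex, miR-5190 in LDLRAD4, a regulator of TGF-beta signalling, and miR-5581 in MEAF6, a subunit of histone acetyltransferases. miR-5189 lies in ZFPM1, a partner of GATA factors, and miR-5587 in CAPN15, a calpain. miR-5587-5p maps to chr16:535316-535333 on the plus strand of GRCh38.p14. miR-5684 lies in HOOK2, a linker of cargo to microtubules, miR-5006 in VWA8 and miR-5585 in TMEM39B. miR-5195 lies in the immunoglobulin heavy chain locus and miR-5196 in CD22, an inhibitory receptor of B cells. miR-5100 (chr10:42997630-42997651, plus strand), miR-5580 and the 3 copies of miR-5701 overlap no other gene of that table. Levels of these host genes were not analysed here.

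Markers of the cell type were read on the same arrays. miR-200a-3p, miR-200b-3p and miR-429, which mark epithelial cells, were detected on all 8 arrays and miR-205-5p on 6, whereas miR-200c-3p and miR-141-3p were detected on none. Of 6 blood miRNAs, 5 were detected on no array, and so were all 6 miRNAs of muscle and stroma and the liver miRNA miR-122-5p. miR-142-3p of blood was detected on 1 array, at a scaled signal of 1.67. The summed signal of the epithelial list ranged from 262 to 270 (DMSO), 259 to 264 (Lut), 219 to 273 (Gef) and 236 to 284 (Lut+Gef). Over all miRNAs, 395 to 481 were detected on an array.

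Spots on the gefitinib and Lut+Gef arrays departed from their probes' typical signal in a way that was shared within a treatment. Every miRNA was printed in 30 spots, as 2 or 3 probes of 10 or 15 spots for those tested here, and copies of a probe should read alike. Each treatment occupied 1 column of arrays on the slide, so treatment and column cannot be told apart. The arrays numbered 1 lay in one row of the slide and those numbered 2 in the other. Across 2527 spots of 173 probes whose median signal exceeded 100 on every array, the log2 deviation of a spot from its probe's median on the same array had a Pearson's r of 0.88 between the gefitinib arrays and 0.92 between the Lut+Gef arrays. It lay between 0.51 and 0.62 for pairs of DMSO or luteolin arrays, and between -0.0046 and 0.017 for a gefitinib with a Lut+Gef array. These correlations run over spots that share their probes and print positions, and are given as a description.

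The same was seen in dim probes, which include most of the set. Among 49183 spots of probes with a median signal under 20 on every array, 16 and 114 stood more than 10 signal units above their probe's median on the DMSO arrays and 16 and 89 on the luteolin arrays. On the gefitinib arrays 321 and 355 did so, 138 of them at the same print position on both, and on the Lut+Gef arrays 288 and 221 did so, 136 at the same position. No such spot was shared by the DMSO arrays or by the luteolin arrays. For the late-numbered miRNAs, with 3120 such spots per array, 29 and 33 stood out on the gefitinib arrays (11 shared), 35 and 25 on the Lut+Gef arrays (20 shared), and 2 to 11 on each DMSO or luteolin array (0 shared within a treatment). Their part in the differences between treatments is given below for each miRNA called.

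**Figure D2:**
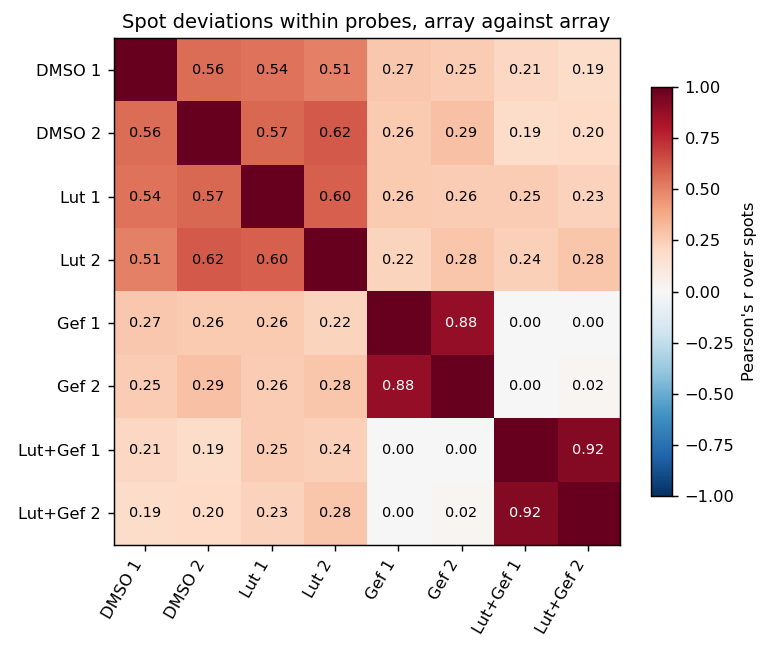
Pearson's r between arrays of the log2 deviation of each spot from the median of its probe, over 2527 spots of 173 bright probes, with arrays named by treatment and replicate on both axes. The gefitinib pair (0.88) and the Lut+Gef pair (0.92) stand above the pairs of DMSO or luteolin arrays (0.51 to 0.62), and gefitinib with Lut+Gef lies near 0.

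Signals below are the total signal of a miRNA, as the software sums it over probes, scaled between arrays. The signal of one miRNA was not set against that of another, since their probes differ. miR-5100 read 7868 and 8703 in DMSO-treated cells (mean 8285 ± 591, SD, n = 2), 8659 and 9985 after luteolin (9322 ± 937), 6205 and 6236 after gefitinib (6220 ± 21.3), and 7236 and 8052 after both drugs (7644 ± 577). Both gefitinib arrays lay below every other array, an order that depended on the scaling. Before scaling, the total of its brighter probe was 6611 and 6858 (DMSO), 6469 and 6609 (Gef), and 7212 and 5607 (Lut+Gef), with Lut+Gef replicate 2 the lowest. miR-5684 read 51.3 and 37.8 (DMSO), 53.6 and 34.5 (Lut), 26.6 and 36.9 (Gef), and 36.5 and 31.5 (Lut+Gef). Its luteolin arrays spanned its DMSO arrays, whereas its gefitinib and Lut+Gef arrays lay below both. Before scaling, the totals of each of its 3 probes overlapped between DMSO and these treatments.

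miR-5581-5p read 26.6 and 23.9 (DMSO), 21.7 and 18.4 (Lut), 22.9 and 23.1 (Gef), and 23.3 and 24.1 (Lut+Gef). Both luteolin arrays lay below both DMSO arrays. miR-5001-5p read 20.8 and 18.5 (DMSO), 24.3 and 18.5 (Lut), 23.6 and 22.3 (Gef), and 23.9 and 29.99 (Lut+Gef), so that the gefitinib and the Lut+Gef arrays lay above DMSO. miR-5006-5p read 38.3 and 20.2 (DMSO), 31.9 and 13.2 (Lut), 19.7 and 19.5 (Gef), and 18.8 and 13.7 (Lut+Gef). The spread of miR-5006-5p between replicates was the widest of the 10 in DMSO-treated and in luteolin-treated cells, at 0.92 and 1.28 on the log2 scale.

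Of the other 5 miRNAs detected on all arrays, 3 varied little. miR-5195-3p ranged from 6.51 to 8.48, miR-5190 from 4.32 to 6.06 and miR-5003-5p from 3.34 to 4.54, so that the highest array was at most 1.403 times the lowest. miR-5090 read 5.17 and 6.45 (DMSO), 4.18 and 5.01 (Lut), 3.21 and 2.99 (Gef), and 1.81 and 5.96 (Lut+Gef). The Lut+Gef arrays of miR-5090 differed by 1.72 on the log2 scale, the widest gap between replicates in that group. Only some of its probes counted as detected on Lut+Gef replicate 1, where all of them together read 2.54. miR-5196-5p read 1.86 and 2.66 (DMSO), 3.21 and 1.88 (Lut), 3.34 and 2.81 (Gef), and 3.44 and 4.56 (Lut+Gef). Its DMSO values leave out a probe that was not detected there, and with all probes they were 3.005 and 4.16, which overlap the Lut+Gef values. The median difference between replicates over the 10 was 0.27 (DMSO), 0.33 (Lut), 0.082 (Gef) and 0.19 (Lut+Gef) on the log2 scale, against 0.32, 0.39, 0.10 and 0.19 over the 365 miRNAs detected on all arrays.

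**Figure D3:**
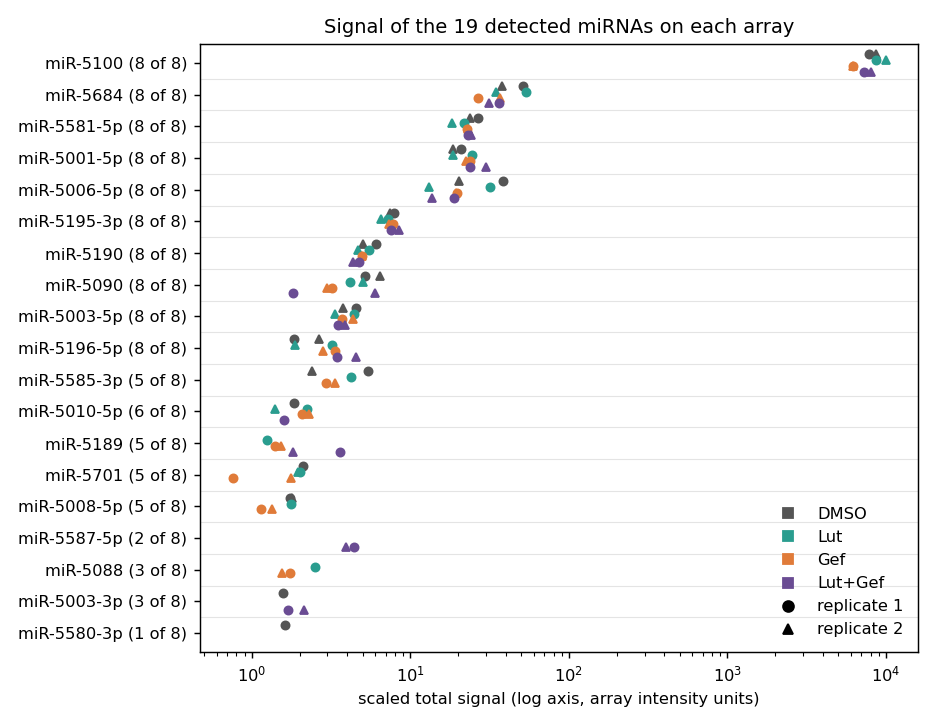
Scaled total signal (log axis) of the 19 detected miRNAs on each array, with colours for treatments, circles for replicate 1, triangles for replicate 2 and the number of arrays with detection in brackets. An array without detection has no point. miR-5587-5p has points for Lut+Gef only, at 4.40 and 3.93, and miR-5100 lies between 6205 and 9985.

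The remaining 9 detected miRNAs were found on 1 to 6 arrays, mostly near the detection limit. Of the 18 miRNAs tested below, 7 were detected on both arrays of one treatment and on no array of another, as were 54 (11.2%) of all 480 tested. miR-5587-5p was detected on the Lut+Gef arrays alone, at 4.40 and 3.93 (mean 4.17 ± 0.334, SD, n = 2). miR-5189 was detected at 3.601 and 1.81 (Lut+Gef), 1.41 and 1.52 (Gef), on luteolin replicate 1 at 1.25, and on no DMSO array. miR-5003-3p read 1.69 and 2.13 (Lut+Gef) and 1.58 on DMSO replicate 1, and was detected on no array of either single drug. With all probes, detected or not, it read 2.22 and 3.39 (Lut+Gef) and 2.49 and 2.42 (DMSO), and these overlap.

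miR-5585-3p, miR-5008-5p, miR-5088 and miR-5701 were detected on no Lut+Gef array. miR-5585-3p read 5.43 and 2.40 (DMSO), 4.25 on luteolin replicate 1, and 2.93 and 3.36 (Gef). With all probes, detected or not, its DMSO values were 5.43 and 4.01. miR-5008-5p read 1.73 and 1.80 (DMSO), 1.77 on luteolin replicate 1, and 1.14 and 1.34 (Gef). miR-5088 read 1.73 and 1.56 (Gef) and 2.50 on luteolin replicate 1, and was detected on no DMSO array. miR-5701 read 2.003 and 1.96 (Lut), 0.757 and 1.76 (Gef), and 2.11 on DMSO replicate 1. miR-5010-5p was detected on 6 arrays at 1.41 to 2.30, and miR-5580-3p on DMSO replicate 1 alone, at 1.61.

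The total signal counts a probe only where it was detected, and a miRNA without a detected probe was set to a floor of 0.609. Exact log2 differences of the partly detected miRNAs, and of miR-5090 and miR-5196-5p, therefore depend on what counts as detected. The fit was repeated with all probes of a miRNA summed, detected or not, an alternative chosen after seeing the data, and its values are given below as all-probe values. For the other 8 miRNAs detected on all arrays both fits gave the same log2 differences within 0.02.

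The comparisons ask how each drug, and both together, change miRNA levels in these cells. The 18 miRNAs detected on both arrays of some treatment were tested with limma in one fit of 480 miRNAs, and called where the adjusted p was under 0.05. The comparisons with DMSO share the DMSO arrays. In such bulk samples fewer cells of a kind and less RNA per cell cannot be told apart.

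After luteolin alone limma called none of the 18, against 2.08% of all 480 miRNAs in this comparison. None had an unadjusted p under 0.05 either, which 8.54% of the 480 had. The methods' t-test, adjusted, called 0 as well. The median log2 fold change was -0.075 over the 18 and -0.10 over the 480, and without scaling the latter moved up by 0.13 and the split of the 18 from 7 higher and 10 lower to 10 higher and 7 lower. miR-5581-5p had the smallest unadjusted p, with a log2 fold change of -0.34 (95% interval -0.70 to 0.021, adjusted p = 0.566 in limma). miR-5088 (1.02, -0.52 to 2.55) and miR-5008-5p (-0.77, -1.95 to 0.41) followed, each with an adjusted p of 0.781, and had all-probe values of 0.28 and -0.48. In 3 miRNAs (miR-5581-5p, miR-5195-3p and miR-5090) both luteolin arrays lay below both DMSO arrays, and in 0 above, against 17.7% and 9.17% of the 480. miR-5008-5p was called without luteolin replicate 1 and miR-5088 without luteolin replicate 2.

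After gefitinib alone limma called none of the 18 either, against 12.1% of the 480. The methods' t-test, adjusted, called 2 (miR-5088 and miR-5189). miR-5587-5p, at the floor on all arrays of both groups, was called higher in 5 of 26 alternatives, all of them with another summary of the spots or probes, at a log2 fold change of up to 1.94. Its all-probe value was 1.24 (0.71 to 1.77, adjusted p = 0.0202). miR-5189 and miR-5100 had an unadjusted p under 0.05, as did 23.8% of the 480. The log2 fold change of miR-5189 was 1.26 (0.16 to 2.36, adjusted p = 0.152), with its undetected DMSO signals set to the floor, and its all-probe value was 0.19 (adjusted p = 0.659). With all probes its scaled signal was 2.51 and 1.67 (DMSO) against 2.16 and 2.51 (Gef), and these overlap. That of miR-5100 was -0.41 (-0.77 to -0.050, adjusted p = 0.155), and ranged from -0.58 to 0.081 over 28 alternatives, of which 0 called it. miR-5088 followed, at 1.43 (-0.10 to 2.97, adjusted p = 0.238), again with both DMSO arrays at the floor and with the gefitinib arrays the only pair through which it passed the filter, and its all-probe value was 0.55 (-0.21 to 1.31). Both gefitinib arrays lay above both DMSO arrays in 5 miRNAs and below in 7, against 21.5% and 36% of the 480. The median log2 fold change was -0.096 over the 18 and -0.10 over the 480. Without scaling the median of the 480 moved up by 0.36, and with it the split of the 18 from 6 higher and 11 lower to 11 higher and 6 lower. miR-5003-3p was called without DMSO replicate 2, and miR-5088 without either luteolin array.

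**Figure D4:**
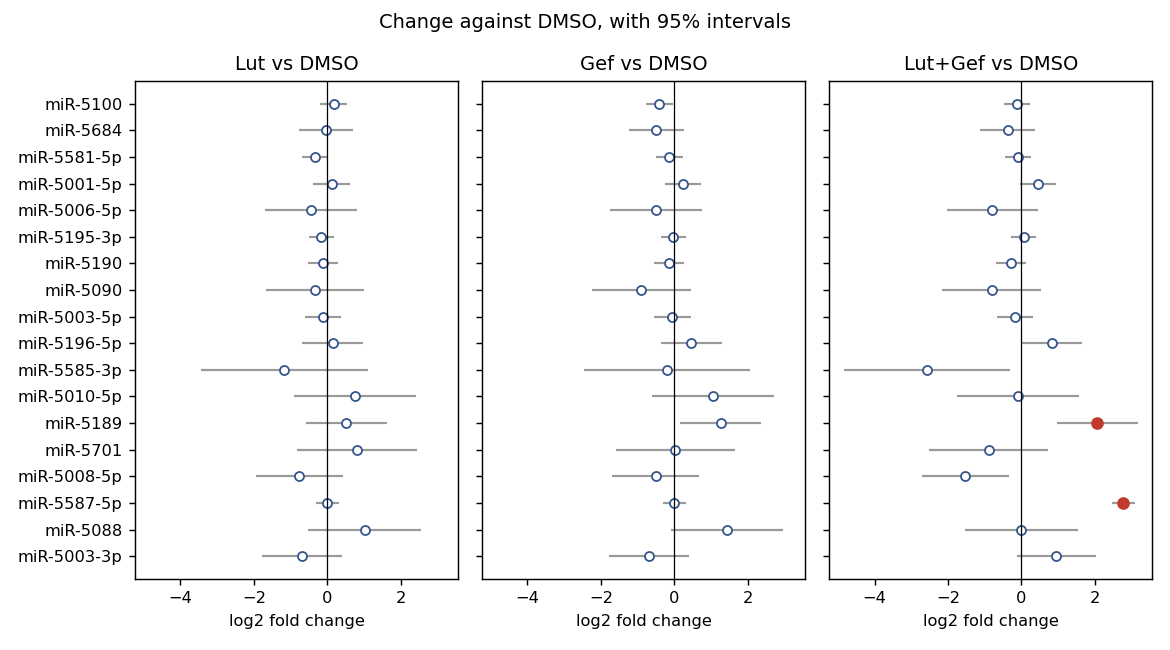
log2 fold change against DMSO of the 18 miRNAs tested, with limma's 95% intervals as lines, for luteolin, gefitinib and both drugs. Filled red points are called (adjusted p under 0.05), namely miR-5587-5p (2.77) and miR-5189 (2.07) after both drugs. Intervals of miRNAs at the floor on all arrays of a group are too narrow.

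After both drugs, 2 of the 18 were called, both higher than in DMSO-treated cells, against 12.1% of the 480 called (6.04% called higher). miR-5587-5p differed by a log2 fold change of 2.77 (2.46 to 3.08, adjusted p = 0.000505 in limma), or at least 5.80-fold for the total signal. For such a bound each undetected signal was set to the lowest detected signal of its array or to the miRNA's own signal over its probes, whichever was higher. It entered the test only through the Lut+Gef arrays and was at the floor on all 6 others, where it has no spread, so it had to differ here, and its standard error and p are too small. miR-5189 differed by 2.07 (0.97 to 3.17, adjusted p = 0.0376), or at least 1.25-fold for the total signal. With standing-out spots left out both differences, at 2.39 and 0.27 on the log2 scale, fell below these bounds. With all probes its scaled signal was 3.601 and 3.47 on the Lut+Gef arrays, and on the other 6 arrays, luteolin and gefitinib included, it lay between 1.67 and 2.51, for an all-probe difference from DMSO of 0.79 (adjusted p = 0.0707). The call of miR-5189 was lost without either DMSO, gefitinib or Lut+Gef array (adjusted p 0.0583 to 0.183), and held in 7 of 26 alternatives, over which its log2 fold change ranged from 0.086 to 2.56. With the methods' t-test, adjusted, or with only the arrays compared, 1 miRNA was called higher and 1 lower, with spot medians likewise, and 1 was called higher and 2 lower with the series table, the mean processed signal, standing-out spots left out or all probes. Neither miRNA is among the 10 detected on all arrays, of which none was called in the main fit.

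Further differences from DMSO after both drugs did not pass the adjusted test. miR-5008-5p (-1.54, adjusted p = 0.108), miR-5585-3p (-2.57, adjusted p = 0.156) and miR-5196-5p (0.83, adjusted p = 0.191) had unadjusted p-values under 0.05, which with the called pair made 5 of 18, against 25.8% of the 480. miR-5008-5p and miR-5585-3p were at the floor on both Lut+Gef arrays, with folds of at least 1.48 and at least 1.88, and the all-probe values of the 3 were -1.10 (adjusted p = 0.0752), -1.28 (adjusted p = 0.0362) and 0.16 (adjusted p = 0.712). In that fit miR-5585-3p was thus called, as was miR-5701 (-0.71, adjusted p = 0.0328). In the fit of total signals miR-5001-5p followed, at 0.45 (-0.049 to 0.95, adjusted p = 0.234). Both Lut+Gef arrays lay above both DMSO arrays in 5 miRNAs and below in 5, against 19.6% and 33.3% of the 480. The median log2 fold change was -0.11 over the 18 and -0.16 over the 480, and scaling to the human small-RNA control probes moved the latter up by 0.40, and the split of the 18 from 6 higher and 11 lower to 12 higher and 5 lower. Without either luteolin array miR-5008-5p and miR-5585-3p were called too, without Lut+Gef replicate 2 miR-5090 was, and without DMSO replicate 1 miR-5003-3p was.

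The comparisons of both drugs with each drug alone share the Lut+Gef arrays with the one above. They called miR-5587-5p too, which entered the test only through the Lut+Gef arrays and is at the floor, with no spread, in both single-drug groups, so that these p-values are too small. Against luteolin 1 of 18 was called, against 1.88% of the 480, and against gefitinib 1 of 18, against 4.58%. Unadjusted p-values under 0.05 were found for 4 of 18 (15.4% of the 480) and for 3 of 18 (12.5% of the 480). The log2 fold change of miR-5587-5p was 2.77 in each (adjusted p = 0.000505 in limma), or at least 5.62-fold against luteolin and at least 2.96-fold against gefitinib for the total signal. The all-probe values were 2.81 (adjusted p = 0.00333) and 1.83 (adjusted p = 0.0119), and with standing-out spots left out the difference was 1.996 against luteolin and 0.45 against gefitinib, below these bounds. miR-5003-3p stood second in each, at 1.64 (0.55 to 2.72, adjusted p = 0.169 against luteolin and 0.163 against gefitinib), or at least 1.19-fold and 1.37-fold, since both single-drug groups are at the floor. It too passed the filter through the Lut+Gef arrays alone. miR-5189 against luteolin was 1.55 (adjusted p = 0.183), and miR-5585-3p against gefitinib was -2.36 (adjusted p = 0.359), with all-probe values of 0.74 and -0.71. Both Lut+Gef arrays lay above both luteolin arrays in 6 miRNAs and below in 2 (16.2% and 17.9% of the 480), and above both gefitinib arrays in 7 and below in 7 (18.8% and 32.3%). Against gefitinib, miR-5008-5p, miR-5088 and miR-5585-3p were called without either luteolin array, and miR-5003-3p without either DMSO array in both comparisons. Against luteolin, miR-5008-5p and miR-5088 were called without luteolin replicate 2.

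The interaction asks whether the log2 change under both drugs departs from adding up the changes under each drug. In this comparison 1 of 18 was called, miR-5587-5p (2.77, adjusted p = 0.00319 in limma), against 3.33% of the 480. This value is the distance of the Lut+Gef arrays from the floor, at which the other 6 arrays all lie, so its p is too small as well, and its all-probe value of 1.57 was not called (adjusted p = 0.0991). An unadjusted p under 0.05 was found for 3 of 18 and for 10.2% of the 480. miR-5003-3p (2.33, 0.79 to 3.86, adjusted p = 0.216) and miR-5088 (-2.45, -4.62 to -0.28, adjusted p = 0.386) followed, and their sizes are set by the floor as well, with all-probe values of 1.61 (adjusted p = 0.116) and -0.51 (-1.58 to 0.56). miR-5003-3p was called without DMSO replicate 2, and miR-5088 without either luteolin array. The median interaction was 0.14 over the 18 and 0.0039 over the 480, and without scaling -0.35 and -0.48.

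The spots behind miR-5587-5p were uneven. On its first probe, with 15 spots, the median spot signal was 14.9 and 6.40 on the Lut+Gef arrays and between 0.919 and 2.04 on the others. On the Lut+Gef arrays 9 and 7 of these spots lay well above background, the brightest at 40.97 and 24.9 and the dimmest at 0.057 and -0.24. Of these spots 6 stood out on both Lut+Gef arrays, and they enter the total signal behind the call. On the second probe the median was 3.17 and 1.45 (Lut+Gef), one above and the other below the 2.92 and 2.74 of the gefitinib arrays, with 3 spots standing out on both Lut+Gef arrays. The software marked these 3 spots as outliers, and marked none of the first probe's spots on the Lut+Gef arrays. The second probe was not counted as detected there, so the total signal, at 4.40 and 3.93, is that of the first probe alone. With both probes it read 5.25 and 4.76. Before scaling the second probe's total was 0.939 and 0.644 (Lut+Gef), below the 1.21 and 1.02 of the gefitinib arrays. The spot signals of the first probe had a Pearson's r of 0.99 between the Lut+Gef arrays and 0.11 between the DMSO arrays, over the 15 spots. Taking the median of the spots kept the call against DMSO (2.65, adjusted p = 0.00258). Leaving out, on all arrays, every spot that stood out on any array kept it too (2.39, adjusted p = 0.00649), but lost the call against gefitinib (0.45, adjusted p = 0.733) and the interaction (0.054, adjusted p = 0.997). These alternatives were chosen after seeing the data.

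miR-5189 had single bright spots, the brightest of which the software left out of its total signal. On its first probe 3 of 15 spots read 106 to 150 on Lut+Gef replicate 1 and 67.6 to 90.6 on replicate 2, at the same print positions, while the median of the 15 was 7.95 and 5.21. The same probe had 1 spot at 85.0 and 73.0 on the gefitinib arrays, at another position, with medians of 3.49 and 4.22. Its medians in DMSO-treated cells were 4.51 and 2.72. On the second probe 1 spot read 175 and 101 on the Lut+Gef arrays. The software marked all of these spots as outliers. Unmarked ones stood out less on Lut+Gef replicate 1, up to 25.4 (first probe) and 18.2 (second probe), and enter the total signal. On Lut+Gef replicate 2, the gefitinib arrays and luteolin replicate 1 the total signal counts the second probe alone. The totals of 3.601 and 1.81 on the Lut+Gef arrays thus count different probes, and with both probes they were 3.601 and 3.47. Over the unmarked spots of the first probe the mean was 7.62 and 4.58 (Lut+Gef), 3.07 and 4.15 (Gef) and 3.86 and 2.797 (DMSO). The log2 fold change after both drugs was 0.78 with the mean processed signal over the unmarked spots (adjusted p = 0.0691), 0.58 with the median of the spots (adjusted p = 0.163) and 0.27 with standing-out spots left out (adjusted p = 0.375), and none of these was called. With the mean processed signal scaled by the 75th percentile over all miRNAs it was 1.27, and called (adjusted p = 0.00509). Each of these summaries gives the undetected DMSO signal its own level instead of the floor, and the last differs from the first in its scaling.

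**Figure D5:**
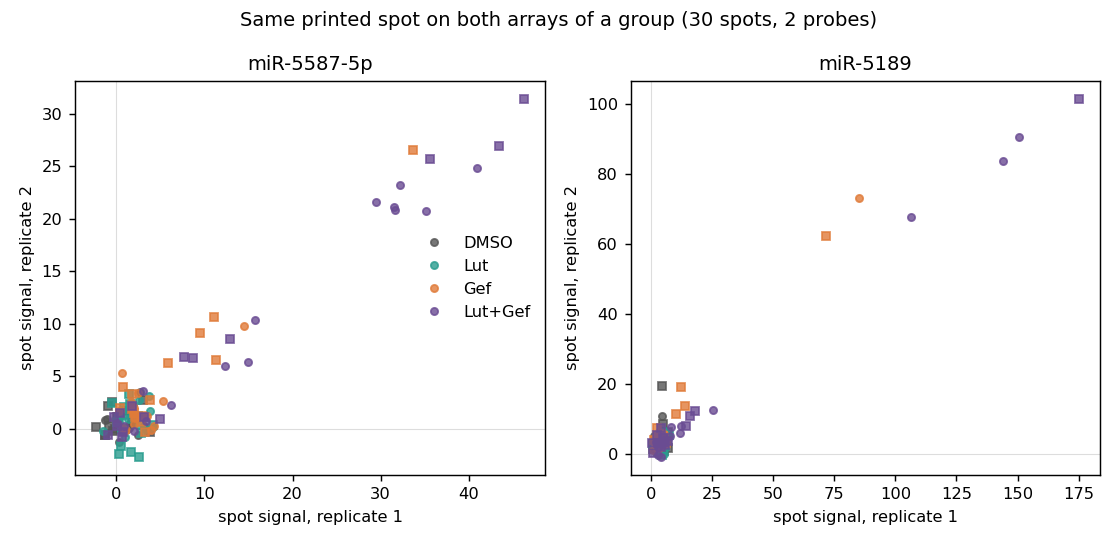
Signal of each of the 30 spots of miR-5587-5p (left) and miR-5189 (right) on replicate 1 and replicate 2 of the same treatment, with circles and squares for the probes of a miRNA. DMSO and luteolin spots reach at most 4.19 for miR-5587-5p and 19.5 for miR-5189, and the bright Lut+Gef spots, up to 46.3 and 31.4 for miR-5587-5p and 175 and 101 for miR-5189, are bright on both arrays.

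In miR-5100 the departing spots were dim rather than bright. Among the 15 spots of the brighter probe of miR-5100 the highest was 1.08 and 1.03 times the lowest on the DMSO arrays, 1.32 and 1.03 times on the luteolin arrays, 2.10 and 1.85 times on the gefitinib arrays, and 2.42 and 1.97 times on the Lut+Gef arrays. On Lut+Gef replicate 1 the spots of this probe ran from 10965 to 26520 around a median of 25436. The software marked the dimmest spot on each gefitinib and Lut+Gef array as an outlier and left it out of the total signal. Before scaling, the unmarked spots of this probe averaged 22668 and 23313 (Gef), 25476 and 19944 (Lut+Gef), and 23159 and 23980 (DMSO). Over the 39 probes of the 18 miRNAs tested, the median r of spot signals between replicates was 0.071 (DMSO), 0.10 (Lut), 0.57 (Gef) and 0.50 (Lut+Gef), and r exceeded 0.7 in 2, 0, 17 and 17 probes.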

How the data were processed

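miRNAs were measured in PC-3 cells under 4 treatments, with 2 arrays each. The authors labelled total RNA with Cy3, hybridised it to 1-colour Agilent SurePrint Human v18 arrays and extracted each with Agilent Feature Extraction 10.7.3.1, so the deposited intensity is on a linear scale, net of background and not yet scaled between arrays. The software sets the total signal of an undetected miRNA to 0.1. 0 spots were saturated. The deposited series table holds the spot intensity, within 0.5% of the scanner files for 100% of the spots. Per the file headers the design is annotated on hg19, whereas sequences and gene names are from RefSeq GRCh38.p14.

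Total signals were divided by their 75th percentile over the 365 miRNAs detected on all 8 arrays, multiplied by the geometric mean of the percentiles, raised to a floor of 0.609 and log2-transformed. The 480 miRNAs that both arrays of some group detected were fitted with limma 3.58.1 in R 4.3.3 (lmFit, eBayes, 4 residual and 1.66 prior degrees of freedom), with two-sided p-values adjusted by Benjamini-Hochberg over the 480. An exact permutation test of 2 arrays against 2 cannot give a p under 0.333, so none was used. The number of arrays limits the precision. The fit was tried on simulated arrays with normal noise and no floor, which does not check the p-values of miRNAs at the floor. A bound on a fold sets the brighter group's mean log2 signal against, per array of the dimmer group, the higher of the lowest detected signal and the miRNA's own signal over its probes. The total signal leaves out spots that the software marks as outliers.

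The set of miRNAs, the marker lists and the rule for naming were chosen with earlier results of these data known. Named were miRNAs called in any comparison, the 10 detected on all arrays, those detected on both arrays of one group and none of another, the 3 of smallest p per comparison, and detected miRNAs sharing a seed. Alternatives changed the scaling, spot and probe summary, background correction, filter, floor, test and arrays in the fit, and left out each array. Figures and summaries used Python 3.11.15, pandas 2.3.3, numpy 2.4.6, matplotlib 3.10.9 and, in R, jsonlite 2.0.0.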

Additional observations from a re-analysis of the deposited data

Results flagged for a closer look

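The interaction of luteolin and gefitinib for miR-5587-5p was 2.77 on the log2 scale (adjusted p = 0.00319 in limma over 480 miRNAs). It is the distance of the Lut+Gef arrays from the floor, at which the other 6 arrays all lie, since the miRNA was detected on both Lut+Gef arrays alone. It passed the filter through that group only and has no spread in the others, so the p is too small. The interaction was called in 16 of 24 alternatives, over which it ranged from 0.054 to 2.98. Spots of its probes that stood out did so at the same print positions on both Lut+Gef arrays, and the treatment and the column of arrays on the slide cannot be told apart.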

How the results depend on the processing

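With 2 arrays per group and most of these miRNAs near the detection limit, the counts of calls moved with small changes. Against DMSO, 0 miRNAs were called after gefitinib, but 1 (miR-5587-5p) with the mean processed signal, with the 75th percentile over all miRNAs of that signal, with the series table, with standing-out spots left out and with all probes summed, and 2 (miR-5088 and miR-5189) with only the arrays compared or with the methods' t-test. After both drugs the count of 2 became 1 with no scaling, spike-in scaling, no filter, a floor of 1, log2 of the signal plus 16 or both gefitinib arrays as 1 sample, and 4 with scaling to the human small-RNA control probes. With that scaling miR-5001-5p and miR-5196-5p, both detected on all arrays, were called higher. miR-5001-5p was also called with the 75th percentile over all miRNAs of the mean processed signal, and miR-5003-3p was called with quantile normalization. Against luteolin the count of 1 became 3 with quantile normalization and 0 with only the arrays compared, and with the t-test it was 1 other miRNA, miR-5701. Against gefitinib it became 2 with quantile normalization or the t-test, 5 with only the arrays compared (2 higher, 3 lower) and 0 with standing-out spots left out. The interaction count of 1 became 0 with the mean processed signal, the 75th percentile over all miRNAs of it, the series table, normexp with quantile normalization, log2 of the signal plus 16, spot medians, standing-out spots left out or all probes summed. The 4 counts above 0 became 0 when only miRNAs detected on all arrays, or by the stricter criterion, were kept, since neither called miRNA then entered. Without 1 array the counts ranged from 0 to 1 (luteolin), 0 to 1 (gefitinib), 1 to 4 (both drugs), 1 to 3 (both against luteolin), 1 to 4 (both against gefitinib) and 1 to 2 (interaction). Where a group was left with 1 array, it was assumed to vary like the others. The causes were not tested.

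No label pairs the arrays by replicate number, but each number is 1 row of arrays on the slide. The difference between replicates correlated across 365 miRNAs at 0.91 between DMSO and luteolin, but at -0.13 between DMSO and gefitinib, with the other pairs of groups between -0.093 and 0.46. With the replicate number as a block the counts were 0, 0, 2, 1, 1 and 1, equal to those without it. Spot medians, the removal of standing-out spots and the sum of all probes were chosen after seeing the data.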
